A study of Mus musculus with 6 samples.

Results

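Acetylcholine receptors are the proteins through which hippocampal cells detect acetylcholine, and 10 of their genes were described here, chosen by symbol from the 51912 genes of the deposited count table. They are the muscarinic receptor genes Chrm1, Chrm2, Chrm3 and Chrm4 and the nicotinic subunit genes Chrna3, Chrna4, Chrna5, Chrna7, Chrnb2 and Chrnb4. Each symbol matched 1 row, and all 10 were among the 17517 genes that passed the filter on low counts. RNA was sequenced from the hippocampus of DBA/2 mice and of C57BL/6 mice, 2 inbred strains, with 3 libraries per strain. No treatment, transgene, sex, age or substrain is stated for either strain, and the labels do not say plainly whether a library came from 1 animal or from pooled tissue, so a p-value here reflects the variation among these libraries, some of which may be technical.

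Muscarinic receptors are G protein-coupled receptors. The M1 and M3 receptors act through Gq on phospholipase C and close M-type potassium channels, while the M2 and M4 receptors act through Gi and lower cyclic AMP. Nicotinic receptors are pentameric cation channels, either of alpha subunits alone, as for the alpha7 receptor, or of alpha and beta subunits together. In the hippocampus their main source of acetylcholine is the axons of the medial septum and diagonal band, and both families are known for their part in memory and in the response to nicotine.

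Of the 10 genes, 5 differed between the strains at an adjusted p under 0.05 in the quasi-likelihood test of edgeR with Benjamini-Hochberg adjustment over all tested genes, against 22.8% of all tested genes. Chrm3 was the 1 gene higher in DBA/2, where the background share was 9.09%. Chrm2, Chrna4, Chrna5 and Chrna7 were the 4 genes lower in DBA/2, where the background share was 13.7%. The shares of 22.8%, 9.09% and 13.7% are also the background for the pathway and marker lists below. The CPM values (counts scaled to a common library size with TMM factors) of the strains did not overlap for Chrm3, Chrna4, Chrna5, Chrna7 and Chrnb2, 5 of 10 genes, against 36.8% of all tested genes. The median log2 fold change (DBA/2 over C57BL/6 throughout) was -0.36 for the 10 genes and 0.00 for all tested genes. The genes differed widely in depth, with 49 to 9278 counts per gene summed over the DBA/2 libraries and 159 to 9561 over the C57BL/6 libraries.

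Total counts per library were 13839366 to 16912153 in DBA/2 and 13867280 to 20185683 in C57BL/6. C57BL/6 replicates 1 and 3 stood apart in that they held Xist, the transcript of the inactive X chromosome, at 193 and 348 CPM, while the other 4 libraries were at or below 0.703 CPM. The Y-linked gene Ddx3y was present in all libraries, at 60.2 to 77.5 CPM in DBA/2 and 50.1 to 72.5 CPM in C57BL/6. Eif2s3y, also Y-linked, was higher in DBA/2, at 86.3 to 97 CPM in DBA/2 and 45.2 to 66.5 CPM in C57BL/6 (log2 fold change 0.80 ± 0.15, SE; adjusted p = 0.0165). The sex make-up of the libraries may thus differ between the strains, and its part in the strain differences was not tested. C57BL/6 replicates 1 and 3 held Xist and Y-linked transcripts together, which may reflect pooled tissue of both sexes. Without these 2 libraries, which leaves C57BL/6 with 1 library that is assumed to vary like those of DBA/2, Chrm3 was the 1 gene called higher and Chrna4 the 1 gene called lower. Of 8 markers of hippocampal principal neurons 2 were higher, 1 was lower and 5 were not called, with a summed level of 1320 to 1360 CPM in DBA/2 and 1210 CPM in each C57BL/6 library. Of the astrocyte and microglia lists 3 of 5 markers each were called lower and none higher. All 5 oligodendrocyte markers lay lower in DBA/2 without overlap, with log2 fold changes from -0.74 to -0.40 and a summed level of 3710 to 4950 CPM in DBA/2 and 5310 to 6690 CPM in C57BL/6, and 1 of them was called. None of 5 choroid plexus markers was called. In whole tissue, fewer cells of a type and less RNA per cell cannot be told apart.

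**Figure D1:**
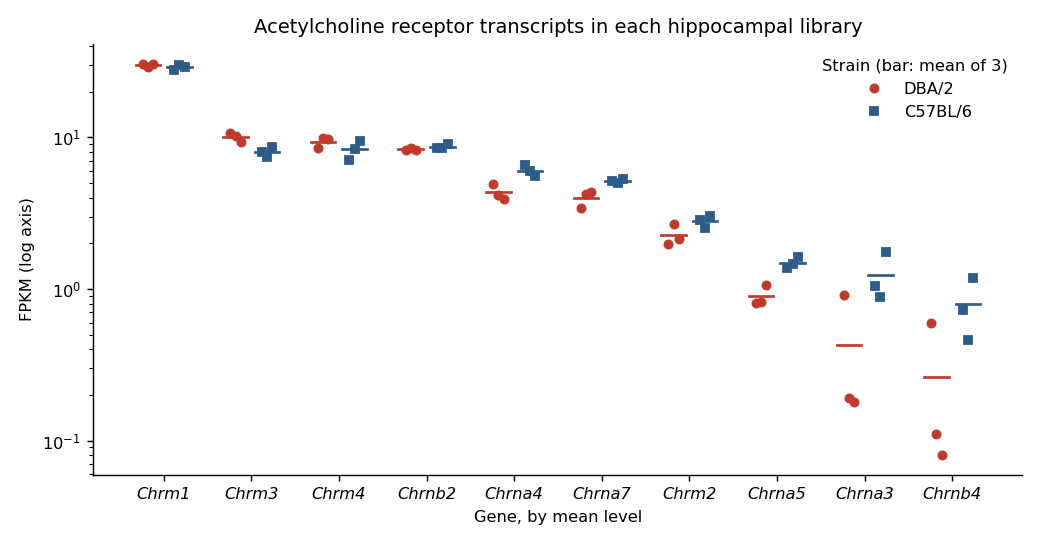
FPKM (log axis) of the 10 acetylcholine receptor genes in each library, with DBA/2 as circles and C57BL/6 as squares, and bars at the mean of 3 libraries. Chrm1 lies near 30 FPKM in both strains, and the DBA/2 points of Chrna3 and Chrnb4 are split, with replicate 1 far above the other two.

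Levels between genes were set side by side as the authors' FPKM (fragments scaled by exonic length and library total), whose exonic lengths equal those of GENCODE M21 for all 10 genes. Chrm1 led in both strains, with 30.1 ± 0.959 FPKM in DBA/2 and 29.0 ± 1.22 FPKM in C57BL/6 (SD, n = 3 each), and each Chrm1 library lay above every library of the other 9 genes. In DBA/2 the next places fell to Chrm3, Chrm4 and Chrnb2, at means of 10.1, 9.37 and 8.36 FPKM, and the library ranges of neighbours overlapped. In C57BL/6 the same 3 genes held these places as Chrnb2, Chrm4 and Chrm3, at 8.68, 8.32 and 8.02 FPKM, again with overlapping ranges. Chrna4 and Chrna7 came next, at 4.33 and 4.01 FPKM in DBA/2 with overlapping ranges and at 6.04 and 5.15 FPKM in C57BL/6 with separate ones. Chrm2 (2.27 FPKM in DBA/2 and 2.81 FPKM in C57BL/6) stood apart from its neighbours in both strains. Chrna5, Chrna3 and Chrnb4 were the last 3 in that order in both strains, at 0.897, 0.427 and 0.263 FPKM in DBA/2 and 1.48, 1.23 and 0.790 FPKM in C57BL/6, with neighbouring ranges that overlapped. The length used for Chrm4, 1440 bases, is that of a single coding model, so its place in this order rests on a length without the rest of the transcript.

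Chrm1, the M1 receptor gene of hippocampal principal neurons (GRCm38 chromosome 19, 8663789 to 8683587, plus strand), was not called. It had 197, 186 and 198 CPM in the DBA/2 libraries, against 182, 198 and 190 CPM in the C57BL/6 libraries. The values interleaved, and the log2 fold change was 0.03 ± 0.05 (SE; adjusted p = 0.737).

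Chrm3, the M3 receptor gene (chromosome 13, 9875486 to 10360847, minus strand), rose in DBA/2. Its level was 66.1, 62.8 and 58.3 CPM in the DBA/2 libraries, against 50.7, 46.8 and 54.3 CPM in the C57BL/6 libraries. All 3 DBA/2 libraries lay above the highest C57BL/6 library. The log2 fold change was 0.30 ± 0.07 (SE; adjusted p = 0.00141), a 1.23-fold difference, and the gene stayed called in each of the 16 alternative settings, with an adjusted p of at most 0.0344. Chrm1 over Chrm3, both in FPKM, was 2.85 to 3.27 in the DBA/2 libraries and 3.37 to 4.07 in the C57BL/6 libraries, and these ranges did not overlap. The genes closest to Chrm3 in their pattern over the 6 libraries, by root mean square distance of centred log2 CPM among 13631 genes, were Abca7 at 0.0238, Cpm at 0.0340 and Mon2 at 0.0415.

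The promoter window of Chrm3 (250 bases before to 50 after the start, RefSeq, GRCm38.p6) is printed as that of the member that rose. It holds no GC box, taken as GGGCGG or, on the other strand, CCGCCC, which 35.7% of the 32851 promoter windows of this length contain. Neither this window nor any of those printed later holds a TATA box, taken as TATAAA or, on the other strand, TTTATA, which 13.6% of all windows contain.
Chrm3 (chr13:10360754-10361053, minus strand): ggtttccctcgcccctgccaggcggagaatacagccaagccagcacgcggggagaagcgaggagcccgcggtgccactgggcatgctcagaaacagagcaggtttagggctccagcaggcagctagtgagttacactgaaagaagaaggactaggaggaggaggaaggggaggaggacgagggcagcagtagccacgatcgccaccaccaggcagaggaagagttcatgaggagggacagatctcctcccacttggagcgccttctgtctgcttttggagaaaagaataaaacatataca

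Of the Gi-coupled pair, Chrm2 (chromosome 6, 36388084 to 36528414, plus strand), whose protein is the M2 receptor of septal terminals and interneurons, was lower in DBA/2. It had 12, 16 and 12.9 CPM in the DBA/2 libraries, against 17.4, 15.4 and 18.5 CPM in the C57BL/6 libraries. DBA/2 replicate 2 lay above C57BL/6 replicate 2, so the strains overlapped. The log2 fold change was -0.33 ± 0.11 (SE; adjusted p = 0.0371), and the call was lost without any 1 of DBA/2 replicates 1 and 3 and C57BL/6 replicates 1 and 3 (adjusted p = 0.105 to 0.187) and in the DESeq2 Wald test (adjusted p = 0.135). An antisense transcript, 9330158H04Rik, shares 142 exonic bases with Chrm2. It had 27 counts over the DBA/2 libraries and 46 over the C57BL/6 libraries, beside 657 counts of Chrm2 over DBA/2 and 873 over C57BL/6, and its part in the Chrm2 value was not tested.

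Chrm4, the M4 receptor gene (chromosome 2, 91927249 to 91928688, plus strand), was not called. It had 12.1, 14.1 and 14 CPM in the DBA/2 libraries, against 10.3, 12.2 and 13.7 CPM in the C57BL/6 libraries, and the ranges overlapped. The log2 fold change was 0.14 ± 0.12 (SE; adjusted p = 0.450). Within the FPKM summed over these 4 muscarinic genes, without Chrm5, Chrm3 took 18% to 20.6% in the DBA/2 libraries and 15.3% to 17.5% in the C57BL/6 libraries, while Chrm2 took 3.84% to 5.18% in DBA/2 and 5.21% to 6.23% in C57BL/6, both without overlap. Chrm1 (56.0% to 59.2% in DBA/2, 57.9% to 62.3% in C57BL/6) and Chrm4 (16.3% to 19.2% in DBA/2, 15.5% to 18.9% in C57BL/6) had overlapping shares.

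**Figure D2:**
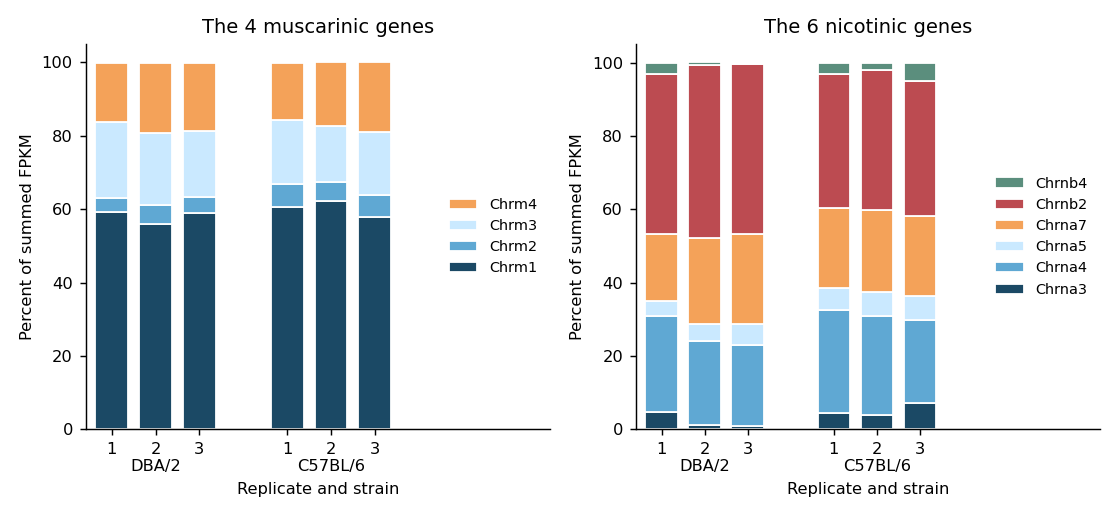
Share of each gene in the FPKM summed over the 4 muscarinic (left) and over the 6 nicotinic (right) genes described here, in percent, for each library, with DBA/2 left of C57BL/6 and with Chrm5, Chrnb1 and the remaining receptor genes left out of the sums. Chrnb2 takes 43.6% to 47.3% of this nicotinic sum in DBA/2 and 36.5% to 38.0% in C57BL/6, and Chrna3 shrinks to a thin band in DBA/2 replicates 2 and 3.

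Among the nicotinic genes, Chrna4 and Chrnb2 encode the subunits of the main high-affinity nicotine receptor of the brain, which is abundant in the thalamus as well. Chrna4 was lower in DBA/2, and Chrnb2 was not called. Chrna4 (chromosome 2, 181018380 to 181043546, minus strand) had 24.5, 20.7 and 19.6 CPM in the DBA/2 libraries, against 33.4, 30.3 and 28.0 CPM in the C57BL/6 libraries. Every DBA/2 library lay below every C57BL/6 library, with a log2 fold change of -0.50 ± 0.09 (SE; adjusted p = 0.000226), or 0.709-fold. The call held in each of the 16 alternative settings, with an adjusted p of at most 0.0302.

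Chrnb2 (chromosome 3, 89746195 to 89764632, minus strand) had 68.5, 70.8 and 69.0 CPM in the DBA/2 libraries, against 72.4, 71.6 and 76.0 CPM in the C57BL/6 libraries. The strains did not overlap, yet the difference was small, with a log2 fold change of -0.08 ± 0.06 (SE; adjusted p = 0.349), and it was not called in any of the 16 alternative settings. Exons of Adar, an RNA-editing enzyme gene on the opposite strand, share 1365 bases with Chrnb2. Whether counting used strand is not given in the sources used here, so reads in those bases may belong to either gene. Adar had 166 ± 11.6 CPM in DBA/2 and 156 ± 5.55 CPM in C57BL/6 (SD, n = 3 each), and its part in the Chrnb2 value was not tested. Chrna4 over Chrnb2, both in FPKM, was 0.596, 0.488 and 0.472 in the DBA/2 libraries and 0.770, 0.707 and 0.615 in the C57BL/6 libraries, with no overlap.

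Chrna7 (chromosome 7, 63098692 to 63212569, minus strand), whose product forms the homomeric alpha7 receptor of hippocampal interneurons and glutamatergic terminals, fell in DBA/2. It had 15.3, 18.9 and 19.6 CPM in the DBA/2 libraries, against 23.3, 22.8 and 24.1 CPM in the C57BL/6 libraries. The C57BL/6 libraries lay close together, with a coefficient of variation of 2.74%, and all 3 stood above the highest DBA/2 library. The log2 fold change was -0.39 ± 0.09 (SE; adjusted p = 0.00328), or 0.763-fold. With limma on log2 FPKM the adjusted p was 0.0629 with a pseudocount of 1 and 0.0614 with 0.1, and without the 2 C57BL/6 libraries with Xist it was 0.141.

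The promoter windows of Chrna4 and Chrna7 are printed as those of the most abundant nicotinic genes that fell, with GC boxes in capitals. The Chrna4 window holds 3 GC boxes, and 10.7% of all windows hold 3 or more. The Chrna7 window holds 1 GC box and 1 match to the EGR1 core, taken as GCGGGGGCG or, on the other strand, CGCCCCCGC, which 2.91% of all windows contain. The EGR1 match does not overlap the GC box and is left in lower case. The start of Chrna4 in RefSeq lies inside the GENCODE gene, and the last 30 bases of each window were found in a GENCODE transcript of its gene.
Chrna4 (chr2:181039128-181039427, minus strand): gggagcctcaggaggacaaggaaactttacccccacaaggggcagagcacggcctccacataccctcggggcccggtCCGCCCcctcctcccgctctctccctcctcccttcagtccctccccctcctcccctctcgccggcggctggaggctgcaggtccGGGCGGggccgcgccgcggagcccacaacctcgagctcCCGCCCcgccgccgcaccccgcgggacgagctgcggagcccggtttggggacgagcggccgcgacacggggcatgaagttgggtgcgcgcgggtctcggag
Chrna7 (chr7:63212477-63212776, minus strand): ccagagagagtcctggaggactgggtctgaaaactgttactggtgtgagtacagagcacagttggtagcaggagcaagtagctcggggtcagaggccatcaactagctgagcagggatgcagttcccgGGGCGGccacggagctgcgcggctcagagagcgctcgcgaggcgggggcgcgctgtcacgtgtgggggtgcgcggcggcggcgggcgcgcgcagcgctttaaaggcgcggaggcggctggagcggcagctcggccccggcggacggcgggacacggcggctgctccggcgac

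Chrna5, Chrna3 and Chrnb4 are neighbours on chromosome 9, within 67900 bases. Chrna5 (54980880 to 55007779) lies on the plus strand, Chrna3 (55010111 to 55026562) and Chrnb4 (55028154 to 55048779) on the minus strand, and the annotated genes are 2331 and 1591 bases apart, so no annotated exon is shared. The alpha5 subunit is an accessory subunit that joins other alpha and beta subunits. The alpha3 and beta4 subunits form the receptor of autonomic ganglia, and in the brain they are known for their high level in the medial habenula, which lies next to the dorsal hippocampus.

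Chrna5 fell in DBA/2 and had the largest absolute log2 fold change of the 5 called genes. It had 2.52, 2.53 and 3.31 CPM in the DBA/2 libraries (43, 43 and 46 counts), against 4.33, 4.58 and 5.13 CPM in the C57BL/6 libraries (72, 63 and 103 counts). The strains did not overlap. The log2 fold change was -0.76 ± 0.19 (SE; adjusted p = 0.00461), or 0.589-fold, and the call was lost only without the 2 C57BL/6 libraries with Xist (adjusted p = 0.122); the filter at 5 CPM leaves the gene out. Chrna5 over Chrnb2, both in FPKM, was 0.0959 to 0.128 in the DBA/2 libraries and 0.160 to 0.181 in the C57BL/6 libraries. The genes closest to Chrna5 in their pattern over the 6 libraries were Sclt1 at a root mean square distance of 0.0525, Snrpb2 at 0.0642 and Pnma2 at 0.0911 in centred log2 CPM.

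Chrna3 and Chrnb4 had the largest log2 fold changes of the 10 genes and were not called. Chrna3 had 4.75, 0.999 and 0.935 CPM in the DBA/2 libraries (81, 17 and 13 counts), against 5.59, 4.73 and 9.21 CPM in the C57BL/6 libraries (93, 65 and 185 counts). DBA/2 replicate 1 reached the C57BL/6 range, and the other two DBA/2 libraries lay far below it. The log2 fold change was -1.53 ± 0.72 (SE; adjusted p = 0.240), and without DBA/2 replicate 1 it was -2.76 ± 0.33 (adjusted p = 1.07e-05). With any other library left out, Chrna3 was not called (adjusted p = 0.302 to 0.482).

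Chrnb4 showed the same split, with 2.23, 0.412 and 0.288 CPM in the DBA/2 libraries (38, 7 and 4 counts), against 2.76, 1.75 and 4.43 CPM in the C57BL/6 libraries (46, 24 and 89 counts). Its log2 fold change was -1.59 ± 0.78 (SE; adjusted p = 0.246), and -3.08 ± 0.47 without DBA/2 replicate 1 (adjusted p = 6.72e-05). With any other library left out, Chrnb4 was not called (adjusted p = 0.239 to 0.469). The limma-voom test called both genes with all 6 libraries (adjusted p = 0.00401 for Chrna3 and 0.0109 for Chrnb4). The spread within DBA/2 was far beyond counting error, with a coefficient of variation of 98.0% for Chrna3 where its mean count gives 16.4%, and 111% for Chrnb4 where its mean count gives 24.7%. For Chrna5 these values were 16.3% and 15.1%. Chrnb4 over Chrna3, both in FPKM, stayed between 0.444 and 0.659 in DBA/2 and between 0.517 and 0.695 in C57BL/6, whereas Chrna5 over Chrna3 ran from 0.890 to 5.89 in DBA/2 and from 0.937 to 1.63 in C57BL/6. As 1 summed feature the 3 genes had a log2 fold change of -1.25 ± 0.43 (SE; adjusted p = 0.128), which without DBA/2 replicate 1 was -1.76 ± 0.24 (adjusted p = 0.000406). With any other library left out, the summed feature was not called (adjusted p = 0.164 to 0.286).

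Some markers of the medial habenula, and some of the thalamus, were split among the DBA/2 libraries with replicate 1 above the others, as Chrna3 and Chrnb4 were. Gpr151, a receptor gene of habenular neurons, had 78, 15 and 11 counts in the DBA/2 libraries, against 120, 51 and 212 in the C57BL/6 libraries, so that Chrna3 over Gpr151 was 1.04 to 1.18 in DBA/2 and 0.775 to 1.27 in C57BL/6. Pou4f1, a transcription factor gene of the same neurons, had 37, 1 and 3 counts in the DBA/2 libraries, against 65, 41 and 84 in the C57BL/6 libraries, and Chrna3 over Pou4f1 was 2.19 to 17 in DBA/2 and 1.43 to 2.2 in C57BL/6. DBA/2 replicate 1 was the highest DBA/2 library for both, and neither gene was called (adjusted p = 0.231 for Gpr151 and 0.194 for Pou4f1). Of 7 medial habenula markers 3 (Tac2, Nwd2 and Gng8) were called lower and none higher, their summed level was 66.6 to 92.8 CPM in DBA/2 and 95.3 to 131 CPM in C57BL/6, and none was at 0 in any library. Tac1, of the same list, ran otherwise, with 6.97, 14.6 and 8.41 CPM in the DBA/2 libraries, against 8.11, 9.90 and 10.5 CPM in the C57BL/6 libraries. Among the thalamus markers, Shox2 had 45, 2 and 1 counts in the DBA/2 libraries, against 353, 146 and 248 in the C57BL/6 libraries, and Tcf7l2 had 15.3, 5.82 and 5.25 CPM in the DBA/2 libraries, against 42.5, 22.7 and 26.9 CPM in the C57BL/6 libraries. Neither was called. Ntng1 and Zic1, of the same list, were called lower, and DBA/2 replicate 1 was not their highest DBA/2 library. In the DBA/2 libraries Ntng1 had 53.9, 50.6 and 54.4 CPM, and Zic1 had 72.7, 76.3 and 59.2 CPM. In the C57BL/6 libraries Ntng1 had 79.6, 58.4 and 69.9 CPM, and Zic1 had 139, 109 and 135 CPM. The markers given by name here were chosen after their values were seen. Of 14 thalamus markers 8 were called lower and none higher, with a summed level of 289 to 380 CPM in DBA/2 and 549 to 795 CPM in C57BL/6, and again none was at 0. These levels stand beside the falls of Chrna4, Chrna5 and Chrna7 too, and their part in any of these differences was not tested. Interneuron markers, with 1 higher and none lower of 8, had summed levels of 1060 to 1110 CPM in DBA/2 and 1070 to 1120 CPM in C57BL/6, and 2 of 6 markers of neocortex and striatum were higher and none lower.

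**Figure D3:**
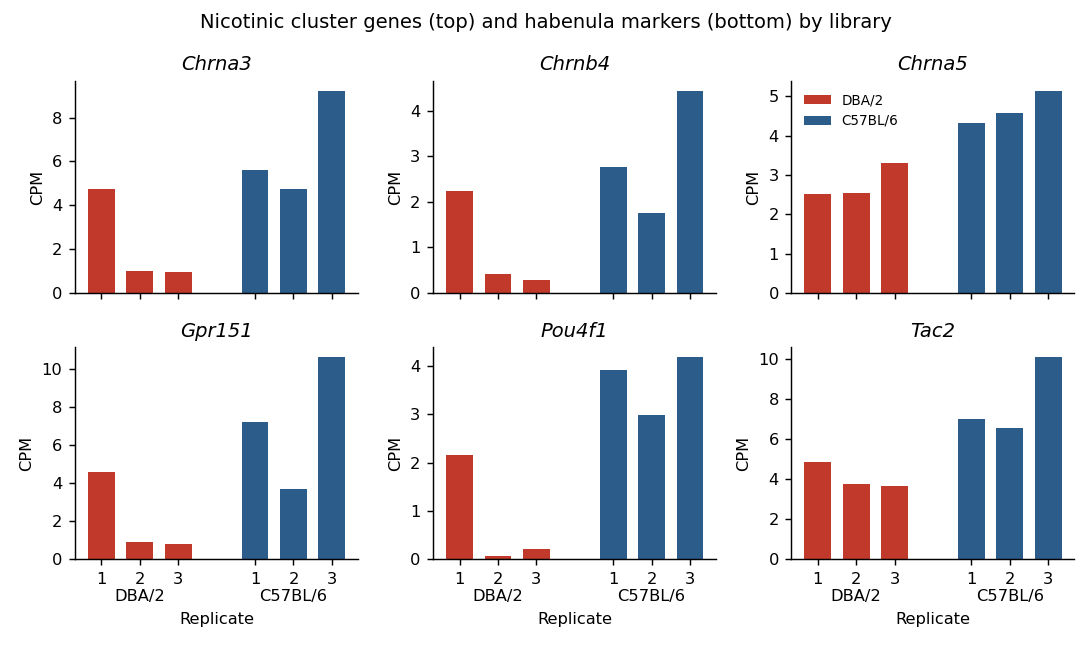
CPM of the neighbouring nicotinic genes (top) and of 3 medial habenula markers (bottom) in each library, with DBA/2 bars left of C57BL/6 bars. Chrna3, Chrnb4, Gpr151 and Pou4f1 share a high DBA/2 replicate 1 and low replicates 2 and 3, while Chrna5 lies at 2.52 to 3.31 CPM in all 3 DBA/2 libraries.

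The promoter windows of this cluster are printed to compare neighbours that differ in pattern, with GC boxes in capitals. RefSeq gives Chrna5 a pair of starts. The upstream window holds no GC box and 41.3% G and C, and the downstream one holds 4 GC boxes and 65.0% G and C, against a median of 52.7% over all windows. The window of Chrna3 holds 1 GC box, and that of Chrnb4 holds none.
Chrna5, upstream start (chr9:54980630-54980929, plus strand): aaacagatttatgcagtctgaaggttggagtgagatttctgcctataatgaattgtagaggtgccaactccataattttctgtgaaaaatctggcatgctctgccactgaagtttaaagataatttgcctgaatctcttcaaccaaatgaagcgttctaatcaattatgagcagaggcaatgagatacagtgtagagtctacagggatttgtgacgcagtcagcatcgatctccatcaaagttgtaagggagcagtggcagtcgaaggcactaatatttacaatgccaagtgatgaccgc
Chrna5, downstream start (chr9:54981238-54981537, plus strand): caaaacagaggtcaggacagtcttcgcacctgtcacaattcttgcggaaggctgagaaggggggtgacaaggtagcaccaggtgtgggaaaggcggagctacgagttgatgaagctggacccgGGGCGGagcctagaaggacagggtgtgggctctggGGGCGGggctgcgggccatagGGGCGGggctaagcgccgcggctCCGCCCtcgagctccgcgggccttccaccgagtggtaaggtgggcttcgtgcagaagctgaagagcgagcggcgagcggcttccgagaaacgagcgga
Chrna3 (chr9:55026513-55026812, minus strand): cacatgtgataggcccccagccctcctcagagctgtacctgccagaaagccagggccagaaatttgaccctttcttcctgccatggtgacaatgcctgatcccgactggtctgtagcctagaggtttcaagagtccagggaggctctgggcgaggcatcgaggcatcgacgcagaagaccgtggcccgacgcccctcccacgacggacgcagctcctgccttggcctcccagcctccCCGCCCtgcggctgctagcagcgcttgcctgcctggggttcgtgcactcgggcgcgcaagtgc
Chrnb4 (chr9:55048495-55048794, minus strand): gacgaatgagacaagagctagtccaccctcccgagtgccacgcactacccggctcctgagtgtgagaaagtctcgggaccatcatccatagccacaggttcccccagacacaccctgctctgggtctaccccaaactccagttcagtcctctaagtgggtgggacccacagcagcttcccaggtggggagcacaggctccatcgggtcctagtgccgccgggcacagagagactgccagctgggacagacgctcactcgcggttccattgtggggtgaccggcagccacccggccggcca

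The remaining acetylcholine receptor genes were low, with Chrnb1, a subunit gene of the muscle receptor, at 1.55 ± 0.148 FPKM in DBA/2 and 1.13 ± 0.265 FPKM in C57BL/6, and Chrm5 at 1.30 ± 0.493 FPKM in DBA/2 and 1.22 ± 0.291 FPKM in C57BL/6 (SD, n = 3 each). Of 11, 5 passed the filter and 1 was called. Chrnb3, a subunit gene of the habenula and of dopaminergic neurons, had 23, 1 and 11 counts in the DBA/2 libraries, against 46, 34 and 64 in the C57BL/6 libraries, a log2 fold change of -1.94 ± 0.52 (SE; adjusted p = 0.0241). Chrm5, Chrna1, Chrna2 and Chrnb1 were not called, with log2 fold changes from -0.26 to 0.42. Chrna6, Chrna9, Chrna10, Chrnd, Chrne and Chrng, 4 of which had 0 counts in at least 1 library, were below the filter and were not tested, with at most 13 counts per gene over DBA/2 and 32 over C57BL/6. A count of 0 in a library still allows a level of up to 3 counts, which was 0.149 to 0.217 CPM depending on the library, for counting error only.

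Of the genes that make, move and break down acetylcholine, 7 of 8 were tested and none was called, with log2 fold changes from -0.60 to 0.12. Slc44a1, a choline transporter-like gene, had 101 ± 10.7 CPM in DBA/2 and 105 ± 1.98 CPM in C57BL/6, and Ache, the acetylcholinesterase gene, had 77.8 ± 1.28 CPM in DBA/2 and 81.3 ± 3.51 CPM in C57BL/6 (SD, n = 3 each). Markers of basal forebrain and striatal cholinergic neurons, none of 8 called, had a summed level of 8.38 to 22.3 CPM in DBA/2 and 14.4 to 25.6 CPM in C57BL/6, and Lhx8 and Gbx1 were at 0 in DBA/2 replicate 1. Of 8 nicotinic chaperones and Ly6-type modulators, 1 fell and 7 were not called, where 22.8% of all tested genes were called in either direction. The 1 was Lypd1, also called Lynx2, a membrane protein that binds nicotinic receptors, with 44.8, 45.9 and 53.7 CPM in the DBA/2 libraries, against 58.3, 57.1 and 64.7 CPM in the C57BL/6 libraries (log2 fold change -0.33 ± 0.07, SE; adjusted p = 0.00145). The Lypd1 values of the strains did not overlap.

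Downstream of the Gq-coupled muscarinic receptors, 2 genes rose, 3 fell and 4 were not called of 9, with a median log2 fold change of 0.02. Of all tested genes, 22.8% were called in either direction. The falls were in 2 phospholipase C beta genes and in an intracellular calcium channel gene. Plcb4 had 41.6 ± 2.38 CPM in DBA/2 and 60.9 ± 7.15 CPM in C57BL/6 (SD, n = 3 each; log2 fold change -0.55 ± 0.08, SE; adjusted p = 1.27e-05). Plcb3 followed with a log2 fold change of -0.30 ± 0.08 (SE; adjusted p = 0.00859), and Itpr1, which was lower at -0.20 ± 0.05 (SE; adjusted p = 0.00307), encodes the inositol trisphosphate receptor. The rises were in M-type potassium channel subunits, the channels that muscarinic signals close. Kcnq5 had 107 ± 10.2 CPM in DBA/2 and 87.3 ± 7.41 CPM in C57BL/6 (SD, n = 3 each; log2 fold change 0.29 ± 0.07, SE; adjusted p = 0.00763), and Kcnq3 had a log2 fold change of 0.16 ± 0.04 (SE; adjusted p = 0.00914). Itpr1 and Kcnq3 were named after their values were seen.

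Downstream of the Gi-coupled receptors, 2 genes rose, 1 fell and 7 were not called of 10, with a median log2 fold change of -0.02. That share of calls is near the 22.8% of all tested genes. Kcnj9 and Kcnj6, subunit genes of the G protein-gated potassium channel, moved in opposite directions. Kcnj9 fell, with 79.5 ± 4.12 CPM in DBA/2 and 115 ± 2.75 CPM in C57BL/6 (SD, n = 3 each; adjusted p = 4.52e-08), and Kcnj6 rose, with 49.3 ± 5.37 CPM in DBA/2 and 41.2 ± 2.65 CPM in C57BL/6 (SD, n = 3 each; adjusted p = 0.0159). Adcy1, an adenylyl cyclase of hippocampal neurons, rose with a log2 fold change of 0.15 ± 0.05 (SE; adjusted p = 0.0378), and its library ranges overlapped.

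**Figure D4:**
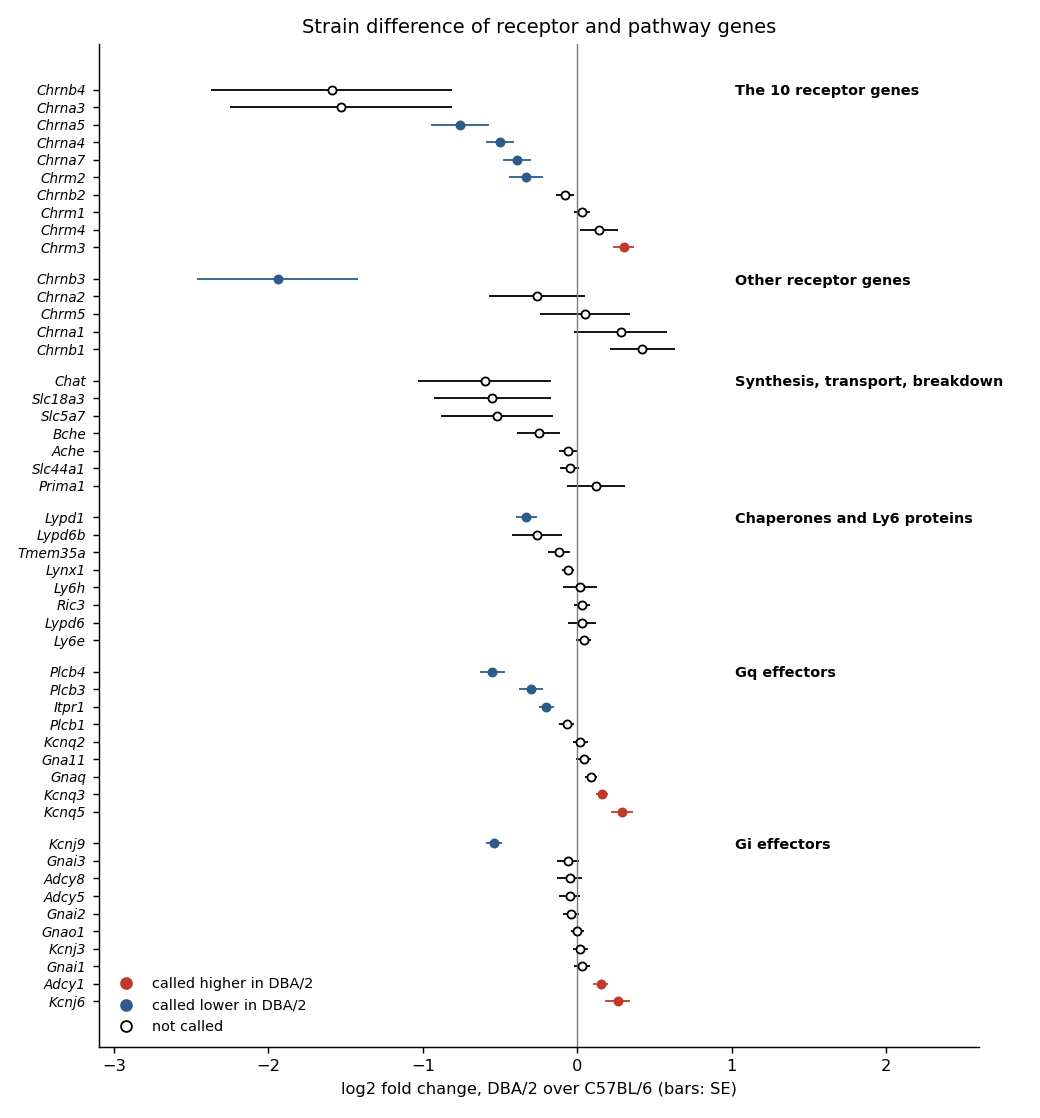
Log2 fold change of DBA/2 over C57BL/6, with its standard error, for the 10 receptor genes and for the tested genes of the pathway lists. Filled points were called at an adjusted p under 0.05 (red higher, blue lower in DBA/2), open points were not, and Chrna3 and Chrnb4 have the widest bars among the 10 receptor genes.

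**Figure D5:**
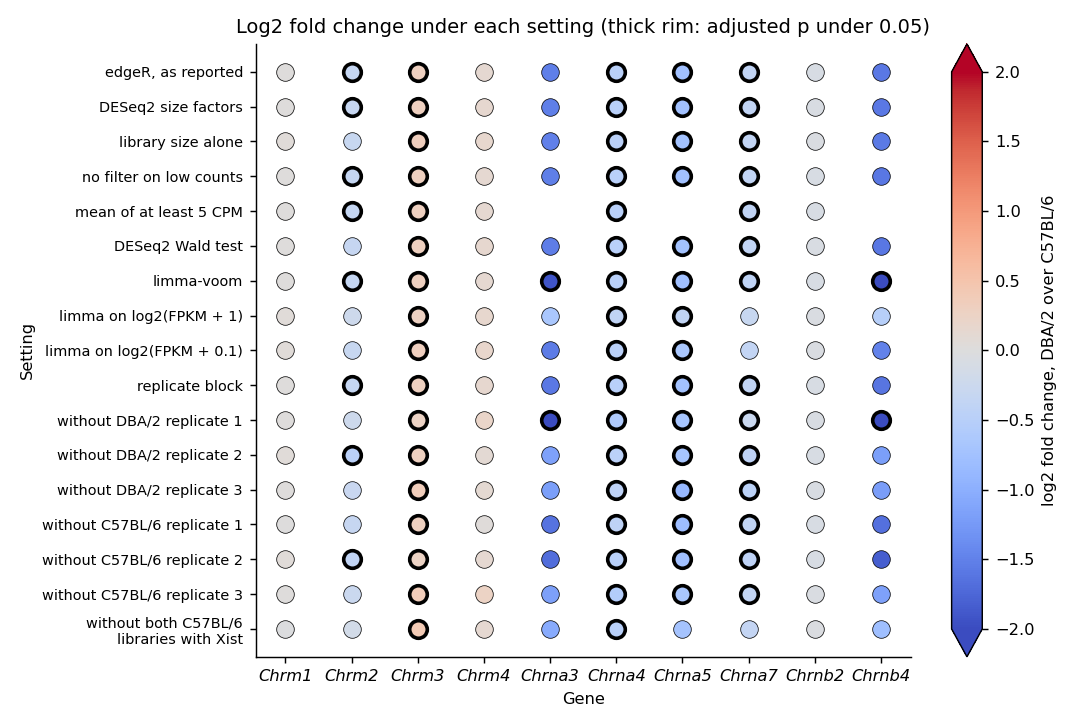
Log2 fold change of DBA/2 over C57BL/6 (colour, limited to the range from -2 to 2) for each receptor gene under each setting, with a thick rim where the adjusted p was under 0.05 and no point where a filter left the gene out. Chrm3 and Chrna4 carry the thick rim in every setting, and Chrna3 and Chrnb4 in limma-voom and without DBA/2 replicate 1.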

How the data were processed

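Hippocampal RNA of DBA/2 and C57BL/6 mice was sequenced in 3 libraries per strain, grouped by the strain label. The submitters' processing notes name Trimmomatic 0.30, HISAT2 2.0.1, Cufflinks 2.2.1 and the GRCm38 build, while which program counted, with which annotation and strand setting, is not stated in them. Whether reads of DBA/2 and of C57BL/6 aligned to the GRCm38 build equally well was not tested. Every setting used here starts from the same deposited data, so none of them addresses it. Per the labels' protocols, RNA was extracted with TRIzol and libraries were made with an NEBNext Ultra kit. For each gene the authors deposited raw counts as whole numbers, its exonic length and an FPKM value. The FPKM equalled the count divided by that length and by the library total, on the usual scale, within 0.005. Another 12 columns, whose names fit no sample of the labels, were left unused. Libraries of a strain differed by more than counting noise (chi-square per degree of freedom 3.36 to 4.22), so each was kept as its own.

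Counts were tested with edgeR 4.0.16 in R 4.3.3 (robust quasi-likelihood F test, TMM factors, filterByExpr by strain) on the whole table, with Benjamini-Hochberg adjustment over 17517 genes. The same test was run on simulated counts with an assumed spread between libraries. It recovered 57% of 1.5-fold and 91% of 2-fold changes, and 6.92% of its calls were false. Smaller changes were not simulated. Calls are at an adjusted p under 0.05, and a standard error is the size of the log2 fold change divided by the square root of F. The members, lists and rules were chosen with earlier results of these data known. Named genes are all members, up to 3 called genes of largest change per pathway list or the 2 most abundant where none was called, and for Chrna5 (largest called change) and Chrm3 (most abundant called member) the 3 genes nearest in pattern. This rule was not used for the marker lists, whose genes were named after their values were seen. Alternatives used DESeq2 1.42.0, limma 3.58.1, other scalings and filters, a replicate block and left-out libraries. Member transcripts were compared with all GENCODE M21 transcripts (BLAST 2.17.0, at least 95% identity over 200 bases), and matched only genes whose exons overlap theirs. RefSeq promoter windows were found for 9 of the 10 members. The floor of 3 counts covers counting error only, while each SD and SE also includes variation among libraries.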

Additional observations from a re-analysis of the deposited data

How the results depend on the processing

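Chrm3, Chrm4, Chrna4 and Chrnb2 kept their direction and their side of the threshold in all 16 alternatives. Chrm2 was the least stable call: its log2 fold change was -0.31 with library size alone (adjusted p = 0.0549), -0.32 in the DESeq2 Wald test, -0.22 and -0.30 with limma on log2(FPKM + 1) and log2(FPKM + 0.1), and -0.47 to -0.23 as each library was left out, with an adjusted p from 0.00543 to 0.187. Chrna7 lost its call with limma on FPKM, at -0.30 with a pseudocount of 1 and -0.36 with 0.1. Chrm2 lost its call there too (adjusted p = 0.214 with a pseudocount of 1 and 0.203 with 0.1), so that 2 members were called lower in both. Chrna3 and Chrnb4 passed the threshold in limma-voom, at -1.91 and -2.06, and as each library was left out ranged from -2.76 to -1.16 and from -3.08 to -1.17. Their summed feature with Chrna5 passed in the DESeq2 Wald test (-1.24, adjusted p = 0.0468), limma-voom (-1.34) and limma on FPKM (-0.81 and -1.13), and ranged from -1.76 to -0.98 as each library was left out. Without the 2 C57BL/6 libraries with Xist, 691 genes were called higher and 1321 lower in all, against 1593 and 2407 with all libraries. There 1 member was called lower, Chrm1 turned to -0.03, and Chrm2 (-0.17), Chrna5 (-0.73) and Chrna7 (-0.35) lost their calls, with fewer libraries in the fit. The cause of these changes, and of those in the other settings, was not tested. The filter at a mean of 5 CPM leaves out Chrna3, Chrna5 and Chrnb4. Library size alone gave 1946 higher and 2202 lower genes, and no scaling moved the median log2 fold change of all genes by more than 0.03.

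Correlations of deviations between same-numbered libraries of the strains were 0.13, -0.07 and 0.00, against -0.12 to 0.11 between libraries of unlike number. With so few libraries this cannot decide whether the numbers pair them. With the replicate block 1474 genes were called higher and 2352 lower, 1 and 4 of the members, and no member's call changed (Chrm2 adjusted p = 0.0490). Depth was lowest for Chrnb4 among the members, with 4 to 38 counts per DBA/2 library and 24 to 89 per C57BL/6 library. Its spread within DBA/2 went beyond counting error, with a coefficient of variation of 111% where its mean count gives 24.7%.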
